A study of Homo sapiens with 8 samples.

Results

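The genes described here are 10 secreted inflammatory ligands: the neutrophil chemokines CXCL1, CXCL2, CXCL3 and CXCL8, the interleukin 1 cytokines IL1A and IL1B, the interleukin 6 family members IL6, IL11 and LIF, and the cytokine IL32. They were taken by symbol, and all 10 had a row among the 16082 genes of the count table. The table covers 8 poly(A) RNA-seq libraries of KYSE150, an established human cell line of esophageal squamous cell carcinoma. Of these, 4 are controls with no knockdown (labelled NC, genotype Control) and 4 carry a short hairpin RNA against HNRNPC (labelled KD, genotype ShHNRNPC). The labels record no drug or cytokine treatment for either group, and they give neither the control hairpin, if any, nor the number of hairpins or the time after knockdown. HNRNPC is an abundant nuclear protein that binds uridine tracts in nascent RNA, and the series was made around its effect on splicing of BOLA3. One cell line was used, and the labels do not say whether the 4 libraries of a group came from separate cultures, so p-values measure only the spread between these libraries, which may be technical.

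Libraries held 28323403 to 34913500 counts, and mean totals did not differ detectably between groups (exact two-sided permutation test, p = 0.657). HNRNPC, the targeted gene, was at 571 to 601 CPM in the controls and 32.5 to 36.5 CPM in the knockdown libraries, so each library matched its label. CPM is the read count of a gene scaled by the size of its library, here after adjustment by a TMM factor. The knockdown changed most of the transcriptome by small amounts. Of 12001 genes tested, 77.3% passed edgeR's quasi-likelihood test at a Benjamini-Hochberg adjusted p below 0.05 (38.7% higher and 38.6% lower), 70.8% had groups that did not overlap in CPM, and 8.42% both passed and changed at least 2-fold. The keratinocyte and epithelial list (KRT5, TP63, CDH1 and 9 others) summed to 3097 to 3181 CPM in the controls and 5303 to 5449 CPM after knockdown. Of its defining genes, SOX2 had at most 24 counts over the 8 libraries. KRT8, KRT18 and KRT5 were its most abundant genes, with log2 fold changes of 1.10, 0.56 and 0.99. The list did not move as one: KRT17 (1.70), CDH1 (0.69), GRHL2 (0.33) and EPCAM (0.28) also rose, while KRT6A (-1.62), KRT14 (-0.77), DSG3 (-0.56) and TP63 (-0.45) fell (edgeR, all called; named after their values were seen).

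The chemokines CXCL1, CXCL2, CXCL3 and CXCL8 act through CXCR1 or CXCR2 on neutrophils and draw these cells into tissue. Interleukin 1 alpha and beta are made as precursors, bind the same receptor IL1R1 with its partner IL1RAP, and switch on NF-kB through MYD88 and IRAK kinases. Interleukin 6, interleukin 11 and LIF each use a further receptor chain with the shared chain gp130, encoded by IL6ST, and signal through JAK kinases and STAT3. Squamous epithelial cells and their tumours make many of these ligands themselves, and several of the messenger RNAs are short-lived because their 3′ ends carry repeats of AUUUA.

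The ligands moved in both directions after knockdown, and mostly by more than most other genes did. Of the 10 members, 9 had enough counts to be tested: 4 rose (CXCL8, IL6, IL32 and CXCL2), 4 fell (IL1B, IL11, IL1A and LIF) and CXCL3 did not pass. The share called (8 of 9, 88.9%) was near the 77.3% of all genes, so the number of calls by itself says little about these genes. At least 2-fold changes were found for 6 of the 9 (66.7%), against 8.42% of all genes, and control and knockdown levels were fully apart for 8 of 9, against 70.8%. The median absolute log2 fold change was 1.39 for the tested members and 0.30 for all tested genes, while the signed medians were 0.13 and -0.01. These genes were chosen with results of these data known, so the counts describe them and are no test.

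**Figure D1:**
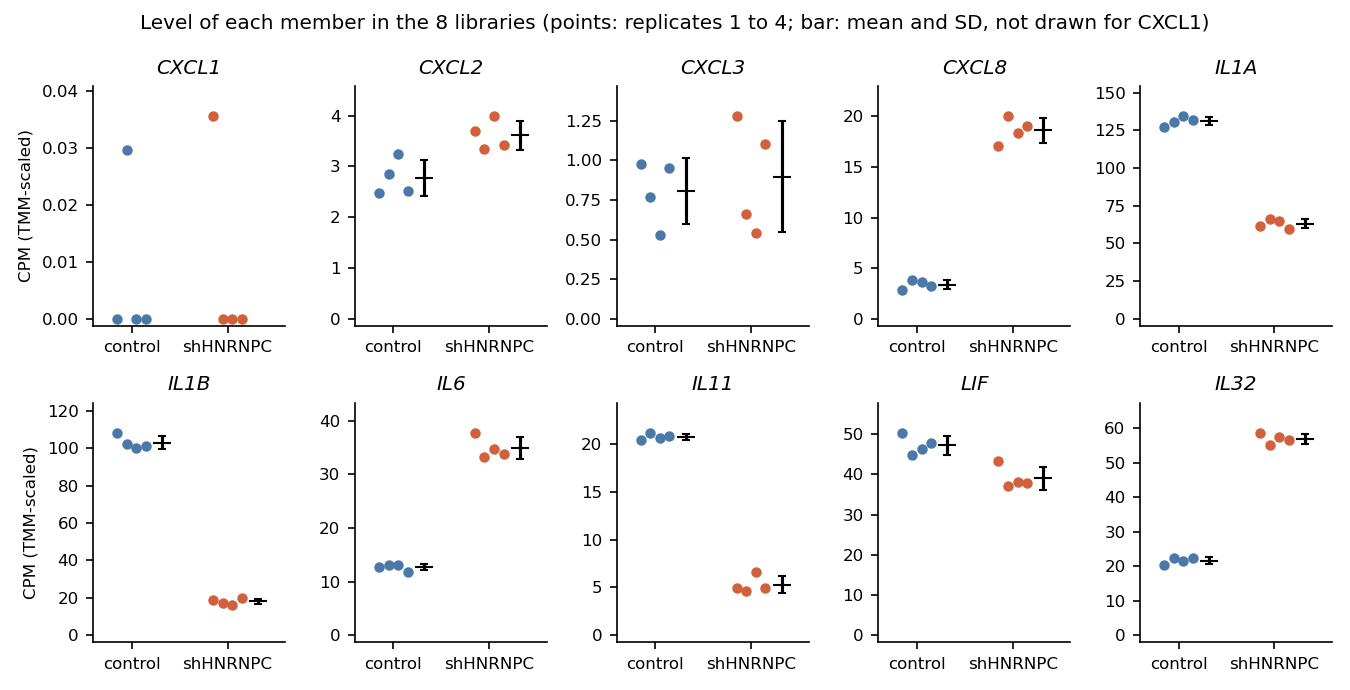
Level of each of the 10 ligand genes (CPM, linear axis from 0, one panel per gene) in the 4 control and 4 shHNRNPC libraries, with the mean and SD beside the points. Control and knockdown points are fully apart for all genes but CXCL1, which is at 0 or 1 count, and CXCL3; CXCL8 goes from 2.84 to 3.85 up to 17.0 to 19.98 CPM and IL1B from 100 to 108 down to 16.4 to 19.9 CPM.

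**Figure D2:**
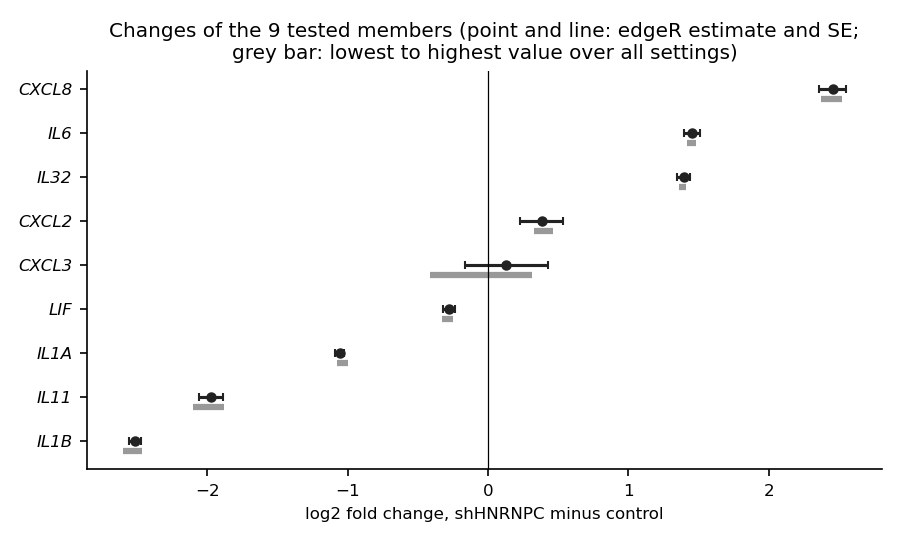
Log2 fold change (shHNRNPC minus control) of the 9 tested ligand genes, with the edgeR estimate and standard error as point and line and the lowest to highest value over the main and all alternative settings as a grey bar. CXCL8 (2.45) and IL1B (-2.51) stand at opposite ends, and the bar of CXCL3 spans 0.

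CXCL8 encodes interleukin 8, the main human neutrophil attractant of this group. Its level in control replicates 1 to 4 was 2.84, 3.85, 3.62 and 3.27 CPM, and in shHNRNPC replicates 1 to 4 it was 17.0, 19.98, 18.3 and 19.1 CPM. Every knockdown library lay more than 4 times above the highest control library. The means were 3.40 ± 0.442 and 18.6 ± 1.26 CPM (SD, n = 4 per group), a 5.48-fold rise with a log2 fold change of 2.45 (SE 0.0943; edgeR quasi-likelihood test, adjusted p = 1.726e-33). By absolute log2 fold change CXCL8 ranked 96th of the 12001 tested genes.

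CXCL2, a chemokine first described in macrophages, rose slightly. The control libraries held 2.48, 2.84, 3.25 and 2.51 CPM and the knockdown libraries 3.69, 3.34, 3.98 and 3.42 CPM. The groups did not overlap, but the highest control (3.25) and the lowest knockdown library (3.34) nearly met. The edgeR log2 fold change was 0.38 with a standard error of 0.154 (adjusted p = 0.0222). This call was lost without control replicate 1 (edgeR adjusted p = 0.0674), control replicate 4 (0.0596) or shHNRNPC replicate 3 (0.0658), and the adjusted p ranged from 0.0111 to 0.0674 over all alternatives.

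CXCL3, the closest relative of CXCL2, was low in both groups and overlapped widely. It was at 0.975, 0.770, 0.531 and 0.953 CPM in the controls and at 1.28, 0.662, 0.543 and 1.11 CPM after knockdown. The log2 fold change was 0.13 with a standard error of 0.296 (edgeR adjusted p = 0.697), at 17 to 36 counts per library, and no change was detected at this precision. CXCL1, which encodes the chemokine GRO-alpha, was all but absent. Only control replicate 2 and shHNRNPC replicate 1 held a read of it, 1 count each, so both groups stayed under a floor of 3 counts per library (0.0863 to 0.107 CPM) and no fold change was computed.

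Because CXCL1, CXCL2 and CXCL3 are near copies of each other, reads could be split between them in ways that the sources do not state. In GENCODE release 29 transcripts, 7.07% of the 75-base stretches of CXCL2 and 4.57% of those of CXCL3 occur in another gene, against 0.245% for CXCL1 and none for CXCL8. The values of CXCL2 and CXCL3 are therefore uncertain, whereas shared stretches cover little of CXCL1. Their summed level was 3.46 to 3.78 CPM in the controls and 4.0 to 5.01 CPM in the knockdown libraries, without overlap. Within each library the ratio of CXCL8 to CXCL2 CPM went from 1.12 to 1.35 in the controls up to 4.6 to 5.98 after knockdown, a difference of 2.07 on the log2 scale (exact two-sided permutation test, p = 0.0286, the smallest that 70 assignments allow; p = 0.0286 adjusted over the 4 ratios tested). These 4 ratios of related ligands were chosen after the values were seen, so their p-values describe these libraries and are no test.

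All 4 chemokine genes lie in a single cluster on chromosome 4 (GRCh38, RefSeq). CXCL8 spans 73740569 to 73743716 and CXCL1 73869393 to 73871308 on the plus strand. CXCL3 (74036589 to 74038689) and CXCL2 (74097040 to 74099195) are on the minus strand. CXCL6 and CXCL5, which lie between them and encode further neutrophil attractants, had at most a few counts (mean 0.00755 CPM or less in either group). The nearest tested gene outside the family, MTHFD2L, a mitochondrial folate enzyme, fell slightly (-0.34, SE 0.114, edgeR adjusted p = 0.00634). No other tested gene of the cluster or within 100 kb of it changed by as much as CXCL8.

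The 180 bases before the annotated starts of CXCL8, CXCL2 and CXCL1 are shown because a strongly raised, a slightly raised and a nearly silent gene carry the same word there. The sequences are from RefSeq on GRCh38.p14 and are written 5′ to 3′ on the strand of the gene. Capitals mark matches to GGNNTTTCC, a form of the NF-kB site, and to TGANTCA, the AP-1 site, each searched on both strands.
CXCL8 (chr4:73740389-73740568, plus strand): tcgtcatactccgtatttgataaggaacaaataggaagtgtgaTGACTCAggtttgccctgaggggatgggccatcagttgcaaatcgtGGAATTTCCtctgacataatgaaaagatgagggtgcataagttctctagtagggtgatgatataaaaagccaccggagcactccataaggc
CXCL2 (chr4:74099196-74099375, minus strand): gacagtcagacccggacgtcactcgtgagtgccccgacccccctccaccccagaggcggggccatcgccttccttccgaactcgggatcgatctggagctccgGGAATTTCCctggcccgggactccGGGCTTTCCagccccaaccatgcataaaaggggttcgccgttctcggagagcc
CXCL1 (chr4:73869213-73869392, plus strand): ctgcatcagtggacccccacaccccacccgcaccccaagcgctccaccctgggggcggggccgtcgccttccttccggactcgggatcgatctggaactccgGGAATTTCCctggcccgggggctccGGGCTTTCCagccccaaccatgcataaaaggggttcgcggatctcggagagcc

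CXCL8 holds GGAATTTCC at 91 to 83 bases before the start and TGACTCA at 137 to 131. CXCL2 holds GGAATTTCC at 77 to 69 bases and GGGCTTTCC at 53 to 45, and CXCL1 and CXCL3 each hold the same pair of words, starting 78 and 53 bases before the start. A match to GGNNTTTCC was found in the 250 bases before the start of 5.48% of 27305 genes, and TGANTCA in 6.60%. Over the transcriptome, of 810 tested genes with GGNNTTTCC in this window 40.6% rose and 36.9% fell, against 38.7% and 38.8% of 8933 genes without it.

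IL1B encodes interleukin 1 beta, a secreted inducer of fever and inflammation that needs cleavage by caspase 1. It had the largest fall among the members. Control libraries held 108, 102, 100 and 101 CPM and knockdown libraries 18.7, 17.5, 16.4 and 19.9 CPM. The knockdown mean was 17.6% of control (103 ± 3.57 to 18.1 ± 1.53 CPM, SD, n = 4), with a log2 fold change of -2.51 (SE 0.0430; edgeR adjusted p = 1.783e-50) and rank 86 of 12001 by absolute change.

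IL1A encodes interleukin 1 alpha, which is active as a precursor and acts as an alarm signal from damaged epithelium. It was the member with the highest CPM. Levels were 127, 131, 134 and 132 CPM in the controls and 61.4, 66.0, 64.7 and 59.5 CPM after knockdown, or 48% of control. The edgeR log2 fold change was -1.06 with a standard error of 0.0309 (adjusted p = 5.564e-40). IL1B fell more than IL1A in each knockdown library. The ratio of IL1B to IL1A was 0.746 to 0.849 in the controls and 0.253 to 0.335 after knockdown. The difference was -1.45 on the log2 scale (exact two-sided permutation test, p = 0.0286, and p = 0.0286 adjusted over the 4 ratios). This ratio was chosen after the values were seen, so its p-value, the smallest possible, is no test.

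The log2 CPM of IL1A followed that of CTBS and AOC2 most closely of all tested genes (Pearson r = 0.99934 and 0.99916 over the 8 libraries, given as a description). In all, 2352 tested genes reached r above 0.95 with it, so such likeness was common.

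The genes IL1A (112773925 to 112784493) and IL1B (112829751 to 112836779) are neighbours on the minus strand of chromosome 2. Of the 2 other tested genes within 100 kb of the pair, NT5DC4 fell (-0.99, SE 0.193, edgeR adjusted p = 5.476e-06) and CKAP2L, a spindle protein, rose (0.51, SE 0.0290, edgeR adjusted p = 1.458e-24). These were named by position, after their values were seen. The 180 bases before the IL1B start are shown beside those of the raised genes because neither GGNNTTTCC nor TGANTCA was found there or in the 70 bases further out.
IL1B (chr2:112836780-112836959, minus strand): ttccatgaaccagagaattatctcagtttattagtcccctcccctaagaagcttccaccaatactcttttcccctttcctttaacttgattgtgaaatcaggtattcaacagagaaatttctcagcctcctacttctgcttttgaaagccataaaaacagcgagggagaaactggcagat

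For IL1A, which has 2 annotated starts, TGACTCA lies 12 to 6 bases before the upstream start, and from the downstream start the same word and a further TGAGTCA lie at 105 to 99 and 55 to 49 bases. No match in such a window says only that these letters are not in it.

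IL6 encodes interleukin 6, which drives the acute-phase response and STAT3 signalling. It rose in every knockdown library. The controls held 12.8, 13.1, 13.1 and 11.9 CPM and the knockdown libraries 37.7, 33.3, 34.7 and 33.8 CPM, so that the lowest knockdown library was more than 2 times the highest control. The mean went from 12.7 ± 0.563 to 34.9 ± 1.99 CPM (SD, n = 4), 2.74-fold, with a log2 fold change of 1.45 (SE 0.0570; edgeR adjusted p = 5.276e-33). IL6 lies on chromosome 7 (22727200 to 22731998, plus strand), and 20.7% of its exon bases overlap other annotated genes, AC073072.1 and STEAP1B. The strand setting of the counting is not given in the sources used here. Reads within the overlap therefore cannot be told apart between IL6 and these genes.

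IL11 encodes a gp130 cytokine tied to epithelial repair and fibrosis, and it moved the opposite way. It was at 20.4, 21.1, 20.6 and 20.8 CPM in the controls and at 4.90, 4.66, 6.58 and 4.96 CPM after knockdown, 25.4% of control. The edgeR log2 fold change was -1.97 with a standard error of 0.0850 (adjusted p = 7.438e-31). The gene is on the minus strand of chromosome 19 (55364382 to 55370463). Of 8 other tested genes within 100 kb, 4 rose and 3 fell, beside 38.7% and 38.6% of all tested genes. The largest change among these neighbours was in COX6B2, a subunit of cytochrome oxidase best known from testis (-2.35, SE 0.423, edgeR adjusted p = 1.308e-06, from 0.783 ± 0.229 to 0.144 ± 0.0924 CPM).

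LIF encodes leukemia inhibitory factor, the third gp130 ligand of the set, and changed least among the 8 called members. The controls held 50.3, 44.8, 46.3 and 47.8 CPM and the knockdown libraries 43.4, 37.0, 38.1 and 37.9 CPM. The groups were close but did not overlap, with the highest knockdown library at 43.4 and the lowest control at 44.8 CPM. The edgeR log2 fold change was -0.28 with a standard error of 0.0451 (adjusted p = 1.596e-07), a fall to 82.6% of control. LIF is on the minus strand of chromosome 22 (30240453 to 30246759), and 6.73% of its exon bases overlap LIF-AS1 and AC004264.1. The 3 other tested genes within 100 kb all rose, beside 38.7% of all tested genes. CASTOR1 rose by 0.68, TBC1D10A by 0.66 and the splicing factor gene SF3A1 by 0.30 on the log2 scale (edgeR, named by position after their values were seen).

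IL6 and IL11 thus changed places relative to LIF. The ratio of IL6 to LIF CPM rose from 0.249 to 0.292 in the controls to 0.871 to 0.913 after knockdown (difference 1.73 on the log2 scale). The ratio of IL11 to LIF fell from 0.405 to 0.471 to 0.113 to 0.173 (difference -1.71). Both gave p = 0.0286 in the exact two-sided permutation test, before and after adjustment over the 4 ratios. Both ratios were chosen after the values were seen, so these p-values, the smallest possible, are no test. Per kb of transcript, IL6 made up 28.4 ± 1.22% (SD, n = 4) of the 3 ligands in the controls and 65.3 ± 0.488% after knockdown, IL11 31.0 ± 0.877% and 6.61 ± 1.09%, and LIF 40.6 ± 1.61% and 28.1 ± 0.689%.

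**Figure D3:**
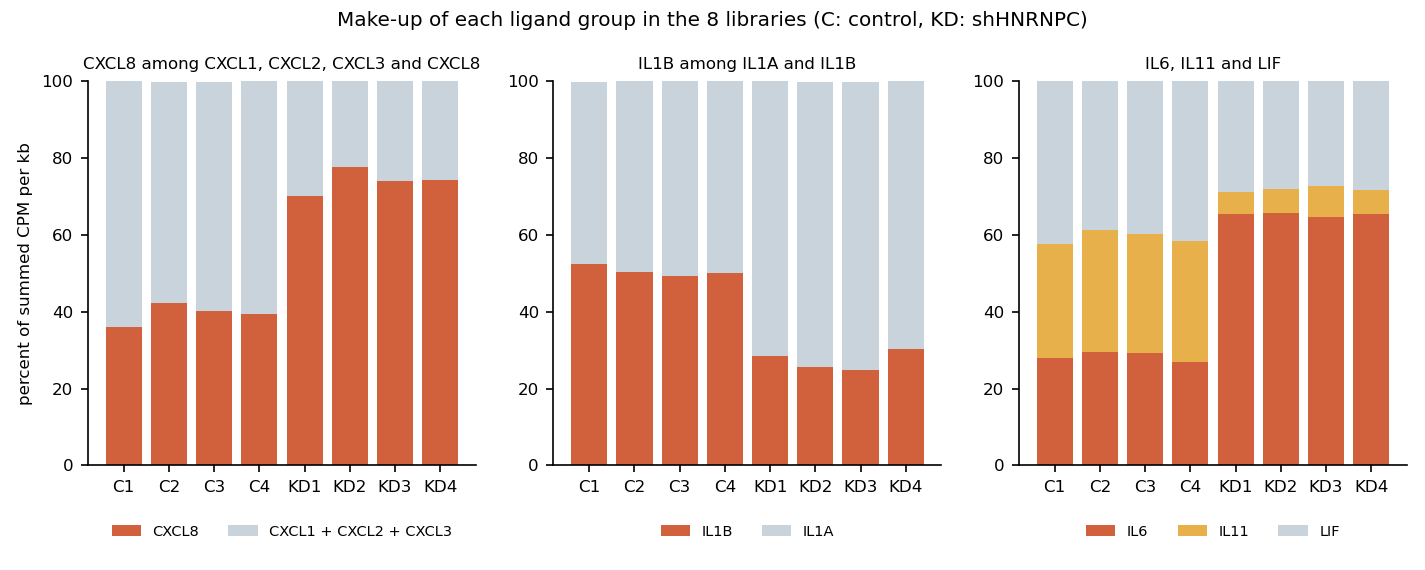
Share of each ligand in its group per library (percent of summed CPM per kb of transcript, from 0 to 100; C, control, and KD, shHNRNPC, replicates 1 to 4). CXCL8 goes from 36.1 to 42.3% of the chemokines to 70.1 to 77.7%, IL1B from 49.3 to 52.5% of the interleukin 1 pair to 24.8 to 30.4%, and IL6 from 26.9 to 29.4% of the gp130 ligands to 64.6 to 65.7%.

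IL32 encodes an intracellular and secreted cytokine with no close relative, which can itself raise TNF, IL6 and CXCL8 in other cells. It went from 20.3, 22.5, 21.6 and 22.3 CPM in the controls to 58.7, 55.2, 57.4 and 56.5 CPM in the knockdown libraries. All knockdown libraries lay far above all controls. The rise was 2.62-fold, with a log2 fold change of 1.39 (SE 0.0453; edgeR adjusted p = 2.016e-37). IL32 lies on the plus strand of chromosome 16 (3065403 to 3069530). Of 11 other tested genes within 100 kb, 5 rose and 3 fell, beside 38.7% and 38.6% of all tested genes.

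The promoter stretches of IL6, IL32 and IL11 are shown as those of 2 raised genes and a lowered one. Capitals mark GGNNTTTCC, TGANTCA, in IL6 also TTGCNNAA, a form of the C/EBP site, and in IL32 TGACGTCA, the cAMP response element, which 1.77% of the 27305 genes hold within 250 bases.
IL6 (chr7:22727020-22727199, plus strand): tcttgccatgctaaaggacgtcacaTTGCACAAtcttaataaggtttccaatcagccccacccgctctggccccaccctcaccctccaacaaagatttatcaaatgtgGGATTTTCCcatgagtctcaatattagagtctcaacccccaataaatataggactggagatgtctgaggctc
IL32 (chr16:3065223-3065402, plus strand): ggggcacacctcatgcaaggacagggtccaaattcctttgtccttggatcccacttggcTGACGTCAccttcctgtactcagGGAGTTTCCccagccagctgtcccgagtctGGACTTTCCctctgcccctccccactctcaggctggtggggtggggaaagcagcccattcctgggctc
IL11 (chr19:55370464-55370643, minus strand): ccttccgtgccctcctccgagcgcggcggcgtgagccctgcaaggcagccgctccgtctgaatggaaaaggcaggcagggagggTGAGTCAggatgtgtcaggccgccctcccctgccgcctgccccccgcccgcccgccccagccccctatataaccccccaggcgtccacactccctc

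IL6 carries GGATTTTCC at 72 to 64 bases before its start. IL32 carries GGAGTTTCC at 98 to 90, GGACTTTCC at 68 to 60 and TGACGTCA at 121 to 114 bases before the upstream one of its 2 annotated starts, and no match before the other. IL11 carries TGAGTCA at 96 to 90 bases and no GGNNTTTCC. TTGCNNAA, the word searched for C/EBP factors, was in 9.13% of genes and in the windows of 3 members. It reads TTGCACAA at 155 to 148 bases before the start of IL6, TTGCAAAA at 215 to 208 bases before that of IL1B, and lies on the opposite strand at 188 to 181 bases before that of CXCL2, the last 2 outside the stretches shown. Of the 9 members with a promoter window, those that hold GGNNTTTCC are the 4 that rose, CXCL1 and CXCL3, and those without it are IL1A, IL1B and IL11. LIF, which also fell, had no promoter window. CXCL1, CXCL2 and CXCL3 hold the same pair of words, so they are not separate cases. This is a description of a few chosen genes, and a link of the word to direction was not tested in them.

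The 3′ UTRs are the other sequences that these ligands share. In the coding transcript with the longest reading frame in GENCODE release 29, ATTTA was present in 9 of the 10 members, IL32 being the exception, and in 69.0% of 11468 tested genes with a 3′ UTR of at least 50 bases. The overlapping double form ATTTATTTA was present in 5 members (CXCL1, CXCL2, CXCL8, IL1B and IL11) and in 6.69% of those genes. The density of ATTTA was 14.0 per kb in IL6, 13.9 in CXCL2, 10.4 in CXCL3, 9.84 in IL1B, 7.19 in CXCL8, 7.08 in CXCL1, 5.56 in IL11, 4.34 in IL1A and 2.18 in LIF, against a median of 1.6 and a 90th percentile of 5.0 over tested genes. The 30 bases richest in ATTTA (capitals) are shown for a raised, a slightly raised and 2 lowered members, as DNA letters on the transcript strand.
CXCL8 (3′ UTR bases 644 to 673): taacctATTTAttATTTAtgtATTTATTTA
CXCL2 (3′ UTR bases 137 to 166): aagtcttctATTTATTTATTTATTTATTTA
IL1B (3′ UTR bases 329 to 358): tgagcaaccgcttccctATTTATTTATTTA
IL11 (3′ UTR bases 27 to 56): ttccaaagccagatcttATTTATTTATTTA

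IL1B and IL11, which fell, and CXCL2, which rose slightly, carry the same core of overlapping repeats, so this feature was found among members that moved either way. Matches to TTTTT, the kind of tract that HNRNPC binds, were counted with overlaps, so a longer tract gives several. There were 17 in the 3′ UTR of CXCL8 (1252 bases), 13 in LIF (3204 bases) and 9 in CXCL3 (673 bases). Lower counts were found in IL11 (6 in 1618 bases), IL1A (4 in 1152) and IL6 (4 in 429). IL1B held 2 in 610 bases and CXCL1 held 1 in 706. None was found in CXCL2 (721 bases) and IL32 (285 bases). TTTTT was present in 77.9% of the tested genes, and the number of matches per gene was not compared with theirs. Binding was not measured in these libraries.

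Levels of different ligands were compared per kb of that transcript. In the controls the order from the top was IL1B (63.1 ± 2.19 CPM per kb, SD, n = 4), IL1A (61.7 ± 1.34), IL32 (20.3 ± 0.939), LIF (11.9 ± 0.594), IL11 (9.09 ± 0.137), IL6 (8.33 ± 0.369), CXCL2 (2.28 ± 0.294), CXCL8 (1.99 ± 0.259) and CXCL3 (0.751 ± 0.192). The libraries of IL1B and IL1A overlapped, as did those of CXCL2 and CXCL8, and the other neighbours in the order did not. After knockdown the order was IL32 (53.4 ± 1.36), IL1A (29.6 ± 1.41), IL6 (22.9 ± 1.30), IL1B (11.1 ± 0.936), CXCL8 (10.9 ± 0.736), LIF (9.85 ± 0.727), CXCL2 (2.96 ± 0.240), IL11 (2.31 ± 0.385) and CXCL3 (0.835 ± 0.326). Here IL1B, CXCL8 and LIF overlapped in their libraries, and so did CXCL2 and IL11. This order depends on the length used. Per kb of all annotated exons, a length chosen after the data were seen, IL1A stayed highest after knockdown (29.6 ± 1.41), followed by IL32 (17.7 ± 0.452) and IL6 (16.9 ± 0.959), whose libraries overlapped. On that scale IL1A also led the controls (61.7 ± 1.34), with IL1B at 33.2 ± 1.2, LIF at 11.9 ± 0.595, IL11 at 7.77 ± 0.117 and IL32 at 6.76 ± 0.311. The shares per kb given above rest on the transcript lengths.

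**Figure D4:**
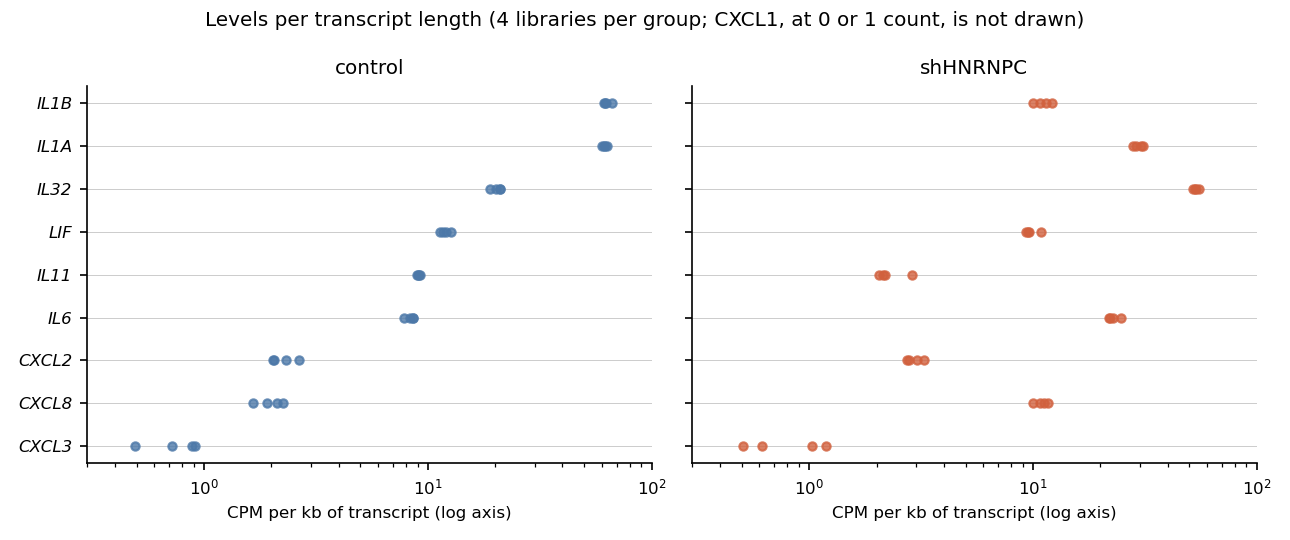
Level of 9 ligand genes in each library (CPM per kb of transcript, log axis), in the order of the control means, with 4 points per gene and group. The control order breaks up after knockdown, with IL32 at 51.7 to 55.0 above IL1A at 28 to 31.1, and IL11 at 2.04 to 2.89 beside CXCL2 at 2.74 to 3.27.

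Other chemokines were mostly too low to test. Of 14 in the list, 2 were tested and both rose: CXCL16, a membrane-bound chemokine, from 4.38 ± 0.406 to 9.61 ± 1.05 CPM (SD, n = 4), by 1.13 on the log2 scale (edgeR adjusted p = 5.624e-15), and the T cell attractant CCL5 from 2.58 ± 0.574 to 5.20 ± 0.952 CPM (1.01, edgeR adjusted p = 3.525e-08). With DESeq2 or without a filter on low counts 4 were higher. Of the 7 tested other cytokines of both families, 1 rose and 3 fell (median -0.36), beside 38.7% and 38.6% of all tested genes. CTF1, which encodes the gp130 ligand cardiotrophin 1, fell from 7.81 ± 1.04 to 3.32 ± 0.268 CPM (-1.24), and CLCF1, another ligand of this family, fell by 0.55 on the log2 scale. IL36RN, the antagonist of interleukin 36, rose (1.20). The interleukin 1 antagonist IL1RN, named after its values were seen, was at 0.541 ± 0.262 and 0.266 ± 0.177 CPM (-1.03, edgeR adjusted p = 0.0308); its call was lost with DESeq2 (adjusted p = 0.0799) and without control replicate 2 or 3 or shHNRNPC replicate 3 or 4 (edgeR adjusted p = 0.0640, 0.174, 0.173 and 0.0731), and its adjusted p reached 0.174 at most over the alternatives.

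Receptors of these ligands and of related cytokines changed in both directions. Among 12 tested receptors 5 were higher and 6 lower, beside 38.7% and 38.6% of all tested genes. The median change of the receptors was -0.41 on the log2 scale. That median turned to 0.18 when genes under 1 CPM were left out, a filter that drops CXCR1, IL1R1 and IL1R2. The rule for naming took IL1RL1, LIFR, IL1R2 and IL18R1, and the other receptors were named after their values were seen. For the gp130 ligands, the LIF receptor chain LIFR, which is not private to LIF, rose from 9.72, 11.1, 9.37 and 10.3 CPM to 30.8, 31.6, 32.2 and 30.4 CPM (1.62, SE 0.0614, edgeR adjusted p = 7.293e-34). The shared chain IL6ST fell from 137, 137, 138 and 142 CPM to 67.7, 60.9, 59.2 and 60.4 CPM, 44.8% of control (-1.16, SE 0.0315, edgeR adjusted p = 4.059e-40). IL6R rose by 0.44 and the oncostatin M chain OSMR by 0.23, while IL11RA, the chain for interleukin 11, fell (-0.76, from 3.57 ± 0.857 to 2.11 ± 0.182 CPM).

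In the interleukin 1 receptor family, IL1RL1, the interleukin 33 receptor ST2, was almost lost, with 515 counts over the 4 controls and 13 over the 4 knockdown libraries (2.48% of the control CPM; log2 fold change -5.21, SE 0.313, edgeR adjusted p = 1.596e-23). The decoy receptor IL1R2 (-1.57) and the interleukin 18 chain IL18R1 (-1.52) fell. The signalling receptor IL1R1 was low, at 0.499 ± 0.190 and 0.472 ± 0.102 CPM (-0.06, edgeR adjusted p = 0.878), its partner IL1RAP rose by 0.18 and the inhibitory receptor SIGIRR by 0.37. Of the chemokine receptors, CXCR1 went from 122 counts over the controls to 7 over the knockdown libraries (-3.97, SE 0.487, edgeR adjusted p = 6.521e-11). CXCR2 held 2 counts and 0 counts and was not tested.

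Downstream signalling genes went both ways by smaller amounts. Of 18 tested genes of the interleukin 1 to NF-kB route, 10 rose and 7 fell (median 0.12). The kinase IRAK1 rose from 277 ± 5.36 to 480 ± 8.21 CPM (0.79), as did the adaptor MYD88 (0.74) and the NF-kB subunit NFKB2 (0.69), while IKBKG, the scaffold of the IkB kinase complex, fell (-0.68). RELA, named after its values were seen, fell by 0.09. NF-kB inhibitors and co-factors, several of which are NF-kB targets, were higher for 6 of 10 genes and lower for 2 (median 0.30). NFKBIE (1.02), NFKBID (0.81), NFKBIA (0.76) and NFKBIZ (0.53) rose, and the deubiquitinase TNFAIP3, named after its values were seen, fell (-0.50). Over all tested genes the corresponding shares were 38.7% higher and 38.6% lower.

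On the gp130 route 6 of 12 tested genes rose and 5 fell (median 0.07). STAT3, the main transducer, rose from 135 ± 2.34 to 262 ± 3.69 CPM (0.96) and the inhibitor PIAS3 by 0.39, and JAK2 fell (-0.33). SOCS3, a STAT3 target named after its values were seen, was at 20.7 ± 1.20 and 18.3 ± 1.05 CPM (-0.18, edgeR adjusted p = 0.00745). Without shHNRNPC replicates 1 and 4 the call of SOCS3 was lost (-0.11, edgeR adjusted p = 0.184). Its relatives in the list differed. SOCS1 rose by 1.34 from 0.329 ± 0.112 to 0.832 ± 0.277 CPM, SOCS2 fell (-0.14) and CISH did not pass (0.06). These were also named after their values were seen. Among C/EBP and AP-1 factors, which act at several of these promoters, 7 of 13 rose and 5 fell (median 0.10). CEBPB fell from 101 ± 5.46 to 24.2 ± 0.503 CPM (-2.07) and CEBPG by 1.17 on the log2 scale, while FOS (1.30) and BATF3 (1.07) rose. Both families were split. CEBPD (0.997) and CEBPA (0.47) rose, while JUN (-0.81), JUND (-0.46) and FOSL1 (-0.24) fell (edgeR, all called and named after their values were seen). For both lists, the shares over all tested genes were 38.7% higher and 38.6% lower.

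Factors of messenger RNA decay and stability, not all binding AU-rich elements, were higher for 8 of 13 tested genes and lower for 3 (median 0.18). ZFP36, or tristetraprolin, which speeds decay of messenger RNAs with AU-rich elements, rose from 41.2 ± 0.781 to 61.4 ± 2.10 CPM (0.57). ARID5A, which stabilises IL6 messenger RNA, rose by 0.54 and the decay factor RC3H1, or roquin, by 0.53, and TIAL1 fell (-0.53). Genes for processing and release of interleukin 1 were higher for 2 of 10 tested genes and lower for 5 (median -0.22). In 11 of 15 alternatives 1 was higher in place of 2. For both lists, the shares over all tested genes were 38.7% higher and 38.6% lower. CASP1, the protease that matures interleukin 1 beta, fell from 6.96 ± 1.07 to 5.01 ± 0.503 CPM (-0.48), CASP4 by 0.61 and the calpain CAPN2, a protease of the same family as those that cleave interleukin 1 alpha, by 0.63 on the log2 scale, while CAPN1 rose (0.31).

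**Figure D5:**
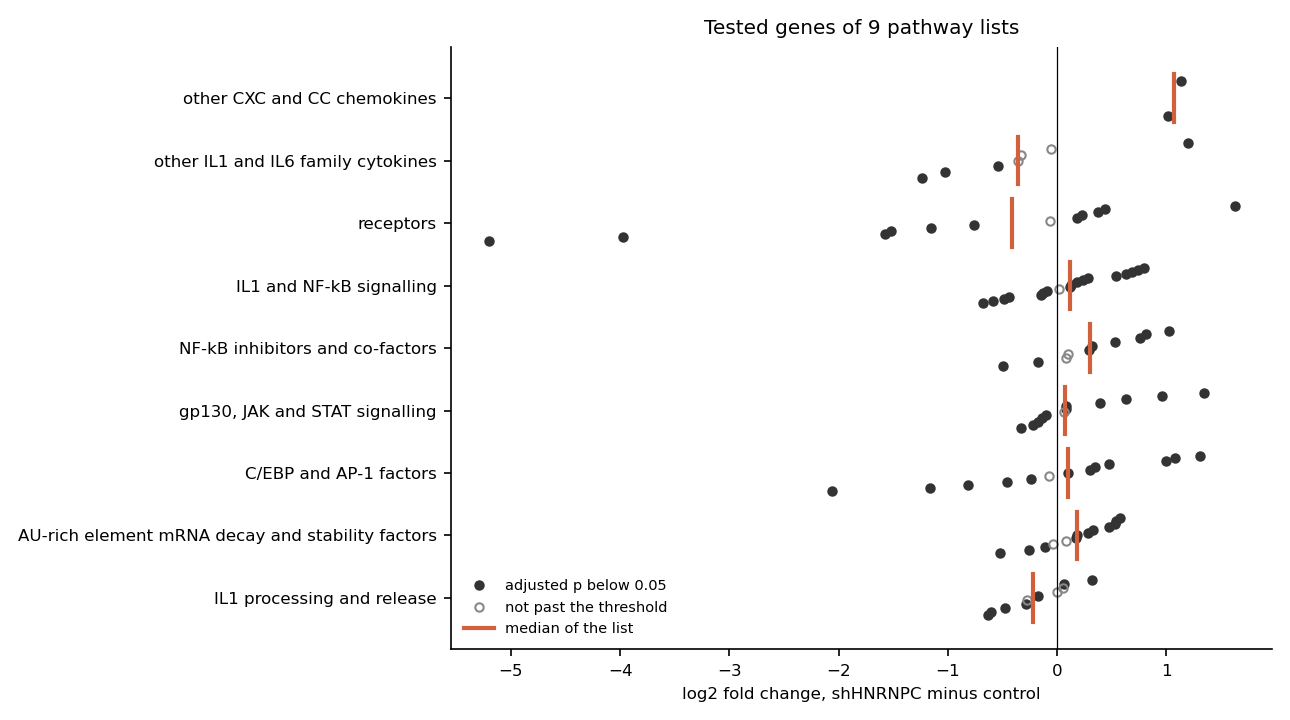
Log2 fold change (shHNRNPC minus control) of every tested gene in 9 lists around the ligands, filled where the adjusted p is below 0.05, with the median of each list as a bar. The receptor list is the widest, from IL1RL1 at -5.21 to LIFR at 1.62, and the NF-kB inhibitors lie mostly above 0 with a median of 0.30.

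Inflammatory ligands can come from other cell types, so markers of these were read beside them. The leukocyte list summed to 2.31 to 3.90 CPM in the controls and 3.02 to 3.18 CPM after knockdown (6 of 10 genes measured; LYZ, CD163 and CD79A with at most 24 counts each over the 8 libraries), led by CSF1R, ITGAM and CD14. The endothelial list summed to 2.37 to 2.63 and 1.33 to 1.91 CPM (5 of 6 genes measured; KDR at most 24 counts), led by VWF, CDH5 and PECAM1. The fibroblast list summed to 3.65 to 3.97 and 8.38 to 9.53 CPM (7 of 8 genes measured), led by COL1A1 (3.25 ± 0.0917 to 7.86 ± 0.222 CPM, log2 fold change 1.27), LUM (0.197 ± 0.0521 to 0.597 ± 0.146 CPM, 1.58) and PDGFRB. The defining fibroblast genes COL1A2, COL3A1, DCN and THY1 each had at most 24 counts over the 8 libraries. The part of these markers in the ligand changes was not tested. In bulk libraries a change in the share of expressing cells and a change per cell cannot be told apart.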

How the data were processed

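Counts per gene were used for 8 libraries of KYSE150 cells, grouped by the genotype in the labels. The deposited values are raw read counts, not normalized, per the file headers and values; per the labels' protocols RNA was extracted with TRIzol and sequenced as 150 bp paired-end poly(A) libraries, and the submitters' processing notes name hg38. The design text names fastp for read filtering. Aligner, counter, annotation and strandedness were not given in the sources used here. Genes passing edgeR's filterByExpr (minimum count 10, minimum total 15) were scaled by TMM and tested with the quasi-likelihood F test (glmQLFit, robust) on group, with Benjamini-Hochberg adjustment over all 12001 genes. Each SE was taken as |log2 fold change|/√F. Software was R 4.3.3, edgeR 4.0.16, limma 3.58.1, DESeq2 1.42.0 and Python 3.11.15. The edgeR step was tested on simulated data. Alternatives were DESeq2, RLE factors, library totals, other filters, a replicate block, and leaving libraries out.

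The members and lists were chosen with earlier results of these data known. Named genes were the 10 members, HNRNPC, up to 4 called genes per list with the largest change and at least 1 CPM, the 3 most abundant markers per cell type list and the 2 genes most like the most abundant member; 1 gene that this rule takes is not reported here. Positions, promoters and names are from RefSeq on GRCh38 (16036 of 16082 identifiers matched), transcripts from GENCODE release 29 (15942 matched). The authors' annotation may differ. Of the 10 members, 9 had a promoter entry, and LIF had none.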

Additional observations from a re-analysis of the deposited data

Results flagged for a closer look

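A library was marked where its gap to the nearest other library of its group exceeded 0.829 of the group's range (Dixon's 95% value for 4 samples), which chance gives in about 1 of 20 groups; 9 of 140 groups of 4 values, from 70 genes, were marked. Among the ligands, IL11 in shHNRNPC replicate 3 was at 6.58 CPM, with the other 3 knockdown libraries at 4.66 to 4.96 CPM, and LIF in shHNRNPC replicate 1 was at 43.4 CPM, with the others at 37.0 to 38.1 CPM. Both stayed below every control library. Among the other genes, BATF3 in shHNRNPC replicate 1 was at 1.53 CPM (others 0.872 to 0.936) and IL11RA in the same library at 2.38 CPM (others 1.99 to 2.04). TIAL1 in shHNRNPC replicate 4 was at 77.5 CPM (others 79.7 to 80.0). In the controls, CASP4 in replicate 3 was at 94.5 CPM (others 98.3 to 98.7), IRAK1 in replicate 1 at 269 CPM (others 279 to 280.1), MYD88 in replicate 2 at 36.6 CPM (others 39.0 to 39.2) and SOCS3 in replicate 2 at 18.9 CPM (others 21.2 to 21.4).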

How the results depend on the processing

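Under 15 alternatives, 131 of 134 values of the tested ligands kept their side of the threshold, the exceptions being those of CXCL2 given above. All ligands but CXCL3 kept their direction; CXCL3 was never called, its log2 fold change ranged from -0.41 to 0.31, and it had no value under the filter of 1 CPM. The number of ligands higher was 3 to 4 and of ligands lower 4 throughout. Over all tested genes 4400 to 4698 were higher and 4386 to 4895 lower. Replicate numbers did not pair the libraries (correlations of same-numbered deviations from -0.0552 to 0.017); with the replicate block 4 ligands were higher and 4 lower, and 4605 and 4614 of all genes. With DESeq2, 4 other chemokines (median 0.90) and 2 other cytokines were higher, as with no filter (4 and 2), and the receptor median was -0.96 under both. With the filter of 1 CPM the receptor median was 0.18 and the C/EBP and AP-1 median 0.011. Without shHNRNPC replicates 1 and 4 together, the median of the other cytokines was -0.55 and 3 genes of the gp130 route were lower. For interleukin 1 processing 1 gene was higher with DESeq2, library totals, no filter, the 1 CPM filter, the replicate block, and without shHNRNPC replicates 1 and 4. Leaving out single libraries gave ranges of -0.57 to -0.22 for the receptor median and 0.10 to 0.15 for the NF-kB route. For the gp130 route the range was 0.023 to 0.094. It was 0.16 to 0.22 for messenger RNA decay and stability factors and -0.24 to -0.080 for interleukin 1 processing. In the last list 1 to 2 genes were higher. Control replicate 4 moved the receptor (-0.22) and processing (-0.080) medians most toward 0, and control replicate 1 (0.028) and shHNRNPC replicate 2 (0.023) that of the gp130 route. PDGFRB passed only without shHNRNPC replicate 1 (0.94, edgeR adjusted p = 0.0436). The causes of these shifts were not tested, except that filters change which low genes enter a list. Low counts limit the precision for CXCL3, and CXCL1 was under the count filter.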

Other observations

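shHNRNPC replicates 1 and 4 were also set against replicates 2 and 3, a split known from earlier results of these data. Among the ligands, both of the former were above both of the latter for CXCL3 (means 1.19 and 0.603 CPM) and IL1B (19.3 and 16.9 CPM), and below for IL1A (60.4 and 65.4 CPM). CXCL3 had the same order in the controls, with replicates 1 and 4 at 0.975 and 0.953 CPM and replicates 2 and 3 at 0.770 and 0.531 CPM. For IL1B and IL1A the same pairs of control replicates overlapped. Among 4 values such an order is common by chance, and its share over all genes was not computed. The knockdown splits of IL1B and IL1A are small beside the difference from the controls. The cause of the splits was not tested.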
